A study of Mus musculus with 8 samples.

Results

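Transcripts of 10 subunits of the SWI/SNF chromatin remodelling complexes were examined in hematopoietic stem cells sorted from mouse bone marrow: Smarca2, Smarca4, Smarcb1, Smarcc1, Smarcc2, Smarcd2, Arid1a, Arid1b, Arid2 and Pbrm1. They were taken by name from a table of 52224 genes, and all 10 were present. The cells carried the surface phenotype CD48-CD150+LSK, which enriches long-term stem cells. The study holds 4 libraries of the genotype DekCon and 4 of the genotype DekTg, both named for Dek, a chromatin-bound protein that binds DNA and histones. The labels name these genotypes and say nothing of age, sex, strain, the promoter behind the Tg allele, or whether a library is 1 mouse or a pool. The series concerns DEK in replication stress and in stem cell function in Fanconi anemia, and the comparison asks which transcripts differ between the genotypes.

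SWI/SNF complexes use the energy of ATP hydrolysis to slide or eject nucleosomes, which opens enhancers and promoters to transcription factors. Each complex holds 1 motor ATPase, either SMARCA4 (BRG1) or SMARCA2 (BRM), on a core with SMARCC1, SMARCC2 or both, and a SMARCD protein. SMARCB1 belongs to the canonical BAF and PBAF complexes but not to the non-canonical one. The canonical BAF complex carries ARID1A or ARID1B, and the PBAF complex carries ARID2 together with PBRM1, a protein with many bromodomains that bind acetylated histones. In blood formation these complexes are known for roles in stem cell maintenance and lineage choice, and several subunit genes are mutated in cancers.

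The start regions of 4 subunit genes are printed first, because Smarca4, Smarcb1 and Smarcc2 varied together across the libraries and Pbrm1 did not follow them. The sequences are 300-base windows around the RefSeq transcription start on GRCm38.p6, written 5′ to 3′ on the strand of the gene, with capitals for the GC box, GGGCGG or its reverse complement CCGCCC. The windows are chr9:21615919-21616218 (plus strand), chr10:75921565-75921864 (minus), chr10:128458986-128459285 (plus) and chr14:31018888-31019187 (plus).
Smarca4: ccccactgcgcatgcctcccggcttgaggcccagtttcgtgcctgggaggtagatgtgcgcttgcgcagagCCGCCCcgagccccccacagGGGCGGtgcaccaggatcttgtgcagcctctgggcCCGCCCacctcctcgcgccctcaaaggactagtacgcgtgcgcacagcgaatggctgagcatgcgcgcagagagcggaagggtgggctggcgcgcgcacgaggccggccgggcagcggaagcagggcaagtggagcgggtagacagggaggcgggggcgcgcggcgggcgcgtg
Smarcb1: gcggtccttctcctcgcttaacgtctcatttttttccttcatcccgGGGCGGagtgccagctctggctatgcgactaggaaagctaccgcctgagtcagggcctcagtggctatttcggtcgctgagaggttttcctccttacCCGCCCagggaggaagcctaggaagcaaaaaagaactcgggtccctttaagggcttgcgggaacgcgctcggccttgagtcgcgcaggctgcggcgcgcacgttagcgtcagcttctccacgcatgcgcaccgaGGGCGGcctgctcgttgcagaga
Smarcc2: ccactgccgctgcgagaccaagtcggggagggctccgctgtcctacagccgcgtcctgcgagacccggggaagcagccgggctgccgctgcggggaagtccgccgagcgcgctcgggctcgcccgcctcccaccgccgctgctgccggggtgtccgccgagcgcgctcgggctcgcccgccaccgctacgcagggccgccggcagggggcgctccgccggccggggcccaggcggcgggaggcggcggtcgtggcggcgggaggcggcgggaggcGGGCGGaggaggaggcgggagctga
Pbrm1: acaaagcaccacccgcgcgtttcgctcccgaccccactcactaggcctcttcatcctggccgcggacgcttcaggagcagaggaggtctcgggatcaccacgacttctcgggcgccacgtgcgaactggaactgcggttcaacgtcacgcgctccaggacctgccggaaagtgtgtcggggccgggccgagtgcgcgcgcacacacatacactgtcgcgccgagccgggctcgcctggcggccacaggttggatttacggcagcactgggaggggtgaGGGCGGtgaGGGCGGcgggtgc
RefSeq windows were matched for 9 of the 10 subunits, with 10 windows in all since Arid1a has 2. Every one of the 10 windows held a GC box on either strand, against 35.7% of the 32851 windows in the table, and overlapping boxes were each counted. A CCAAT box (CCAAT or ATTGG) was in 0 of the 10, against 37.4% of all windows. The 4 printed windows held 33 (Smarca4), 27 (Smarcb1), 48 (Smarcc2) and 35 (Pbrm1) CpG dinucleotides, where the median window of the table held 7. Not every RefSeq start is the 5′ end of the GENCODE gene: those of Smarcc1, Smarcd2, Arid1b, Smarca2 and 1 of Arid1a lie 14316, 5340, 742, 110 and 2784 bases inside it, while the 4 printed ones lie within 12 bases of it. The window at the internal start of Smarcd2 had 4 CpG and was the 1 subunit window with a TATAA match, a motif in 24.9% of all windows. These letters describe the windows and do not show that a factor binds there. Any link between the windows and the pattern across libraries was not tested.

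Values are normalized read counts, that is reads per gene divided by 1 size factor per library and not scaled for gene length. Recovered reads ranged from 2525052 to 4099806 per library, and each subunit had between 88 and 1119 reads in every library. Dek itself was listed at 477, 539, 632 and 395 in the 4 DekCon libraries and at 2700, 2296, 1862 and 2710 in the 4 DekTg libraries (replicates 1 to 4). The groups did not overlap, with a ratio of means of 4.68 (two-sided exact permutation test, p = 0.0286, the smallest possible with 4 against 4). None of the 4 DekTg values of Dek is a whole number of reads, unlike its 4 DekCon values and 99.99% of the table. The lack of overlap, the ratio and the p-value rest on those DekTg values. Neither the difference nor its size can therefore be taken as measured. No subunit holds such a value. Kit, which marks the sorted cells, was between 1072 and 1557. Slamf1, the gene of CD150, was 228 to 300.4 in DekCon and 190.04 to 213 in DekTg, without overlap (limma adjusted p = 0.711). Cd48 was between 128 and 259, although the sort excluded cells with CD48 on their surface. Of the 4 sort markers Kit, Ly6a, Slamf1 and Cd48, Slamf1 alone had a lower mean log2 value in DekTg, and 3 had a higher one. Summed values of 7 stem cell markers were 3577 to 4127 in DekCon and 3005 to 3707 in DekTg. By gene, 4 of the 7 were lower in DekTg and 3 higher. Unadjusted limma p was under 0.05 for 3 of the 7, against 6.93% of all genes tested, and 0 passed after adjustment. Summed values of erythroid and of B lymphoid or plasma cell markers were higher in DekTg. They were 131 to 325 and 318 to 554 in DekCon, and 477 to 603 and 1541 to 2662 in DekTg. By gene, 7 of the 8 erythroid markers had a log2 fold change (DekTg minus DekCon) above 0, and 1 lay below, at -0.89. All 7 B lymphoid or plasma cell markers lay above 0. Of the 8 erythroid and 7 B lymphoid markers, 3 and 2 passed the test given below, namely Hba-a1, Hba-a2 and Hbb-bs, and Igkc and Jchain. No gene of either list was at 0 in every library. Summed myeloid markers were 3136 to 9856 in DekCon and 1872 to 10364 in DekTg, and summed megakaryocyte markers 2415 to 8629 and 1860 to 3217, with 0 of 7 and 0 of 4 past the test. The part of these cells in the subunit values was not tested. In bulk RNA, fewer cells of a type and less RNA per cell cannot be told apart.

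All 10 subunits lay lower on average in DekTg, by small amounts, and none passed the test. The log2 fold changes of (value + 1), DekTg minus DekCon, ran from -0.33 for Smarca4 to -0.08 for Arid2, with a median of -0.21. Limma, with p-values adjusted by Benjamini and Hochberg's method across 37414 genes, called 0 of the 10 (adjusted p = 0.711 to 0.929, threshold 0.05). It called 0.0347% of the tested genes, 0.0267% higher and 0.00802% lower. Unadjusted p was under 0.05 for 2 of the 10, Arid1a and Pbrm1, both lower. At that level stood 6.93% of the tested genes in either direction, 3.78% lower, and 9.58% lower among genes with a mean value of at least 100. That count of 2 rested on single libraries and on the scaling. It was 6 without DekCon replicate 3, against 8.22% of all genes. Without DekCon replicate 1, 2 or 4 or DekTg replicate 1 it was 0, against 5.18% to 6.58%. It was 3 without DekTg replicate 2 (8.46% of all genes) and with the replicate number as a block (7.38%). It was also 3 with no filter on low values (6.1%) and with a minimum value of 10 (7.86%). Without DekTg replicate 3 (5.82%) or 4 (5.94%) it was 1. Quantile normalization (6.26%), the same total in every library (7.09%) and leaving out the trend (6.15%) gave 0. With replicates 1 and 4 of each group averaged it was 0 as well, against 5.32%. EdgeR on recovered reads called 0 of 10, with 1 under an unadjusted 0.05 against 6.54% of all genes. DESeq2 called 0 of the 8 subunits to which it gave an adjusted p, all but Smarcc2 and Smarcd2, and 3 of 10 were under an unadjusted 0.05 against 4.34% of all genes.

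A lower mean in DekTg was common among well-expressed genes. A fold change below 0 was seen for 49.4% of all genes tested, but for 71.0% of the 7602 genes with a mean value of at least 100, the range in which all 10 subunits lie. The median of those 7602 genes was -0.10, and that of all genes tested was 0.0057. With quantile normalization the subunits' median moved to -0.09 with 9 of 10 below 0, and 49.5% of the 7602 genes were below 0. With every library scaled to the same total, the subunits' median was -0.13, with 9 of 10 below 0. In both, Arid2 was the subunit on the other side. Summed over the 10 subunits, the normalized count was 4911, 5078, 4007 and 4807 in the DekCon libraries and 3925, 4031, 4053 and 4066 in the DekTg libraries (replicates 1 to 4). DekCon replicate 3 lay within the DekTg range and the other 3 DekCon libraries above it.

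**Figure D1:**
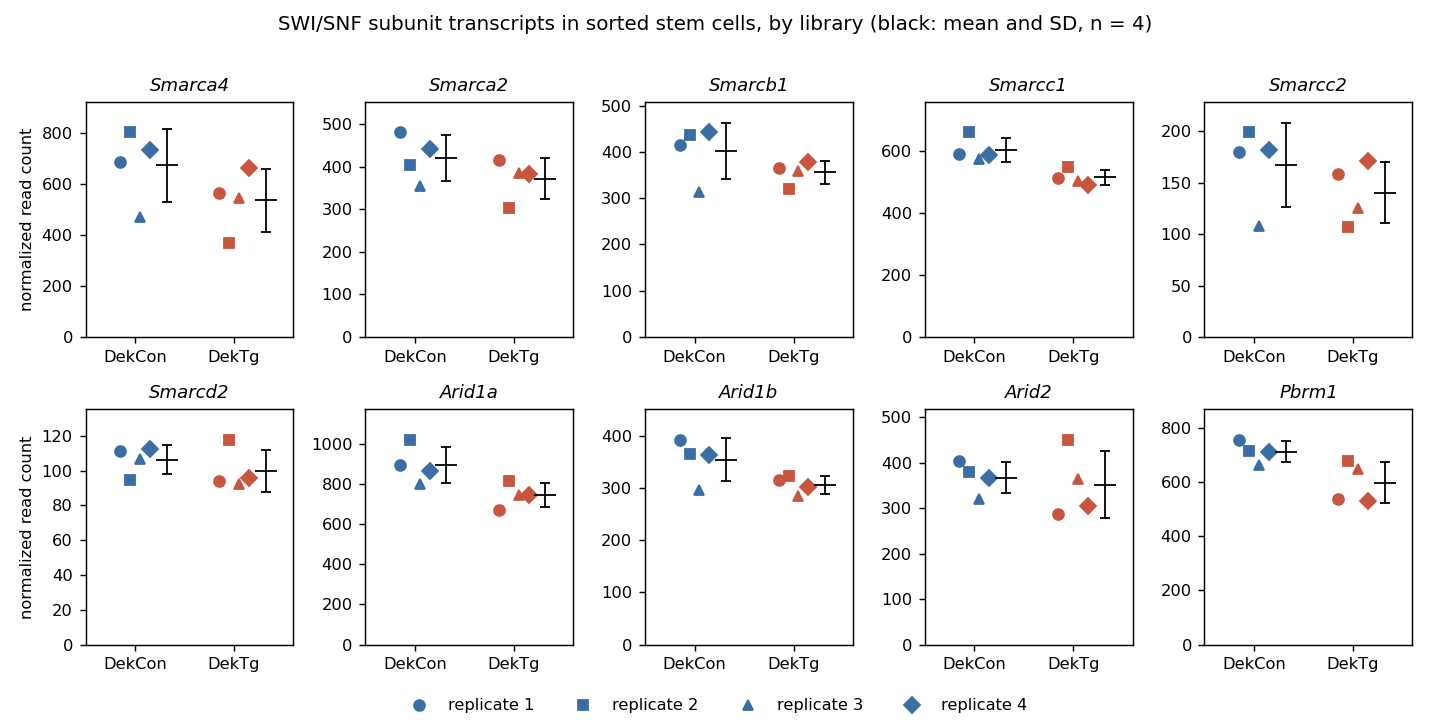
Normalized read counts (vertical axes, from 0) of the 10 subunits in the 4 DekCon (blue) and 4 DekTg (red) libraries, with a symbol for each replicate number and the mean and SD in black. The Smarcc1 points of the groups do not overlap, while Smarca4 and Smarcc2 are low in DekCon replicate 3 and DekTg replicate 2.

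Among the ATPases, Smarca4 had the largest difference of the 10 subunits and also the widest spread, with a highest library 2.18 times its lowest. Positions below are those of GENCODE on GRCm38. Smarca4 (chr9:21616169-21704230, plus strand) had values of 690, 805, 471 and 736 in DekCon and 568, 370, 545 and 664 in DekTg (replicates 1 to 4). The groups overlapped, since DekCon replicate 3 was lower than 3 of the 4 DekTg libraries. The means were 675 ± 144 and 537 ± 122 (SD, n = 4 each), with a log2 fold change of -0.33 (SE 0.18, 95% interval -0.72 to 0.05, limma adjusted p = 0.747). That value rested on single libraries: it was -0.17 without DekTg replicate 2 and -0.50 without DekCon replicate 3. Smarca2 (chr19:26605050-26778322, plus strand), the alternative motor, had 480 (DekCon replicate 1), 405, 355 and 442 in DekCon and 416, 303, 384 and 383 in DekTg. Its groups overlapped as well, with DekTg replicate 2 lowest. Its log2 fold change came to -0.18 (limma SE 0.14, adjusted p = 0.812), or -0.08 without DekTg replicate 2.

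In the core, Smarcc1 and Smarcd2 varied least over the 8 libraries, with a highest library 1.34 and 1.28 times the lowest. Smarcc1 (chr9:110117708-110240178, plus strand) encodes a scaffold protein on which the complex is built, and its values were 592, 661, 576 and 587 in DekCon and 515, 550, 505 and 492 in DekTg. Every DekTg library was below every DekCon library, and Smarcc1 was the 1 subunit of the 10 for which this held; 1.88% of all genes tested, and 4.42% of those with a mean of at least 100, were lower without overlap. The means were 604 ± 38.7 and 516 ± 24.8 (SD, n = 4 each), so the DekTg mean was 85.3% of the DekCon mean. The log2 fold change was -0.23 (SE 0.11, 95% interval -0.46 to 0.01, unadjusted p = 0.0582, limma adjusted p = 0.721), and between -0.26 and -0.18 on leaving out any 1 library. It depended on the scaling, at -0.08 with quantile normalization and -0.14 with the same total in every library.

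Smarcc2 (chr10:128459248-128490482, plus strand), the partner scaffold of Smarcc1, was less abundant and more variable. Its values were 180.01, 199, 107 and 181 in DekCon and 158, 107, 125 and 171 in DekTg. The lowest library of each group, DekCon replicate 3 and DekTg replicate 2, had nearly equal values, and the groups overlapped. Smarcc2 gave a log2 fold change of -0.23 (limma SE 0.20, adjusted p = 0.826), with -0.43 without DekCon replicate 3 and -0.11 without DekTg replicate 2. Smarcb1 (chr10:75896769-75921617, minus strand) encodes a core subunit that contacts the nucleosome and acts as a tumour suppressor. It had 416, 436, 314 and 442 in DekCon and 366, 320, 359 and 378 in DekTg, again with DekCon replicate 3 and DekTg replicate 2 lowest in their groups. Apart from DekCon replicate 3, every DekCon value of Smarcb1 was above every DekTg value. Its log2 fold change was -0.17 (limma SE 0.13, adjusted p = 0.82), and -0.28 without DekCon replicate 3.

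Smarcd2 (chr11:106263179-106272972, minus strand) encodes the SMARCD form known for its need in neutrophil granule formation. It had the lowest counts of the 10, at 112, 94.7, 106 and 113 in DekCon and 94.0, 118, 92.2 and 95.5 in DekTg. DekTg replicate 2 was the highest of the 8 libraries, and the other 3 DekTg libraries lay close together at the low end. Smarcd2 gave a log2 fold change of -0.09 (limma SE 0.15, adjusted p = 0.917), and -0.17 without DekTg replicate 2.

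The ARID subunits help to define the type of complex. Arid1a (chr4:133679008-133756769, minus strand), which defines canonical BAF and is the SWI/SNF gene most often mutated in cancer, had 891, 1018, 799 and 864 in DekCon and 668, 814, 746 and 745 in DekTg. Of all pairs between the groups, only DekCon replicate 3 and DekTg replicate 2 crossed. The means were 893 ± 91.9 and 744 ± 59.7 (SD, n = 4 each), with a log2 fold change of -0.26 (SE 0.12, 95% interval -0.51 to -0.01, unadjusted p = 0.0432, limma adjusted p = 0.711). With quantile normalization the Arid1a value was -0.09. Arid1b (chr17:4994332-5347656, plus strand), which takes the same place in canonical BAF, had 392, 365, 295 and 364 in DekCon and 316, 323, 284 and 301 in DekTg. DekCon replicate 3 again lay inside the DekTg range, and the log2 fold change came to -0.20 (limma SE 0.12, adjusted p = 0.775).

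The PBAF subunits followed, and neither passed the test. Arid2 (chr15:96287518-96404992, plus strand), the DNA-binding subunit of PBAF, had 403, 379, 321 and 367 in DekCon and 288, 450.4, 364 and 304 in DekTg. The highest of all 8 libraries was DekTg replicate 2, and the lowest were DekTg replicates 1 and 4. The log2 fold change of Arid2 was -0.08 (SE 0.15, 95% interval -0.39 to 0.23, limma adjusted p = 0.929), with -0.21 without DekTg replicate 2 and 0.0076 without DekTg replicate 1. Pbrm1 (chr14:31019138-31121592, plus strand) had 756, 716, 662 and 712 in DekCon and 536, 676, 647 and 531 in DekTg. DekTg replicate 2 lay just above DekCon replicate 3, and no other pair of libraries crossed. The log2 fold change of Pbrm1 was -0.26 (SE 0.12, 95% interval -0.51 to -0.0018, unadjusted p = 0.0486, limma adjusted p = 0.717), and -0.10 with quantile normalization. Gnl3 lies on the opposite strand of Pbrm1 and Dhx30 on that of Smarcc1, with 15 and 123 shared exonic bases. The sources used here do not give the strand setting of the counting, so reads from those bases cannot be told apart.

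The intervals bound what these libraries could have shown. Across the 10 subunits the lower 95% limits lay between 60.8% (Smarca4) and 76.3% (Arid2) of the DekCon level, and the upper limits between 99.4% (Arid1a) and 117% (Arid2). A 2-fold loss or gain lies outside each of these 10 limma intervals.

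**Figure D2:**
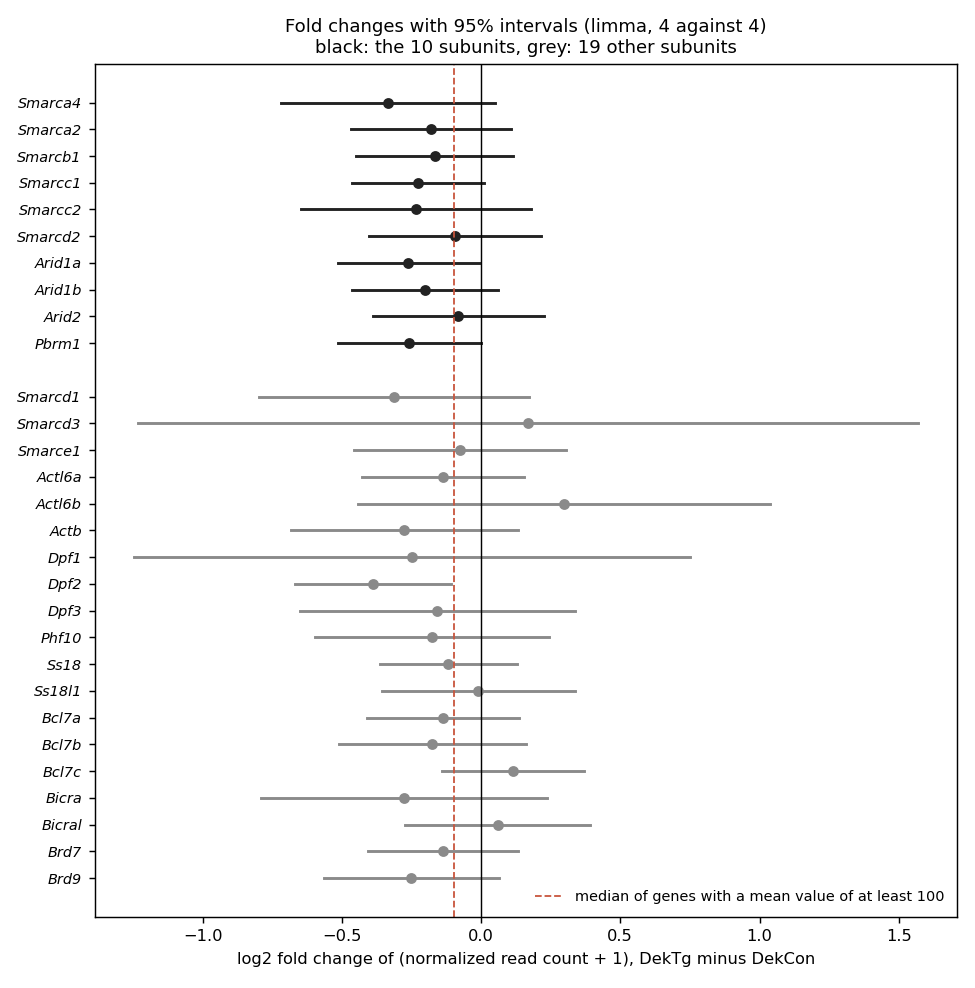
Log2 fold changes of (normalized read count + 1), DekTg minus DekCon (horizontal axis), with limma 95% intervals for the 10 subunits (black) and 19 other SWI/SNF subunits (grey). The dashed line marks the median of -0.10 for genes with a mean value of at least 100; the points of the 10 subunits run from -0.33 to -0.08.

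The subunits followed different patterns across the libraries. These groupings were made after the values were seen and are given as a description over 8 libraries, which share depth and preparation between genes. After each group's mean was removed, Smarca4 and Smarcc2 had a Pearson r of 0.94, Smarcb1 and Smarcc2 of 0.94, and Smarca4 and Smarcb1 of 0.91. Arid2 and Pbrm1, the pair found in PBAF, had an r of 0.95 with each other. They were not alike only to each other, since Arid1a of canonical BAF had 0.72 with Arid2 and 0.59 with Pbrm1. Against Smarca4, r was weak for both (-0.35 for Arid2 and -0.34 for Pbrm1, and -0.20 and 0.15 with the group means kept), and lower for Smarcd2 (-0.64, and -0.34 with the group means kept). In DekTg replicate 2, Smarca4 lay 0.67 below its own mean over the 8 libraries on the log2 scale (deviation -0.67) and Smarcc2 showed -0.48, whereas Arid2 showed 0.34, Smarcd2 0.20 and Pbrm1 0.06. In DekCon replicate 3 the deviations were -0.32 for Smarca4, -0.48 for Smarcc2, -0.15 for Arid2, 0.05 for Smarcd2 and 0.03 for Pbrm1, so Arid2 was low there with the first set.

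Base composition differed between these genes and between these libraries. The principal transcript was 43.2% GC for Pbrm1, 45.9% for Arid2 and 48.5% for Smarcc1, and between 51.1% and 56.9% for the other 7. Across 6877 genes with a mean of at least 100, the Pearson r between transcript GC and the deviation of a library from the gene's mean was -0.57 in DekTg replicate 2, -0.16 in DekTg replicate 3 and -0.13 in DekCon replicate 3, and between 0.12 and 0.26 in the other 5 libraries. Across the 10 subunits this r was -0.41 in DekTg replicate 2, -0.58 in DekTg replicate 3 and -0.31 in DekCon replicate 3. It was 0.41 and 0.66 in DekTg replicates 1 and 4, and -0.11, 0.22 and 0.48 in DekCon replicates 1, 2 and 4. Smarcd2 by itself went the other way: it has the highest GC of the 10, at 56.9%, and was highest in DekTg replicate 2. The part of base composition in the subunit values was not tested. Replicates 1 and 4 of each group were also closer to each other than to the rest (r = 0.98 on the log2 scale in both groups, against 0.87 to 0.95 for every other pair of libraries). Between replicates 1 and 4 alone the log2 fold change was -0.46 for Pbrm1, -0.38 for Arid2 and -0.23 for Smarcc1; between replicates 2 and 3 alone it was -0.06, 0.21 and -0.23. Smarcd2 moved in the same sense (-0.24 and 0.05), as did Arid1a (-0.31 and -0.21) and Arid1b (-0.29 and -0.11), whereas Smarca4 (-0.21 and -0.45) and Smarcc2 (-0.13 and -0.34) moved in the other. Smarca2 had -0.21 and -0.15, and Smarcb1 -0.20 and -0.13.

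**Figure D3:**
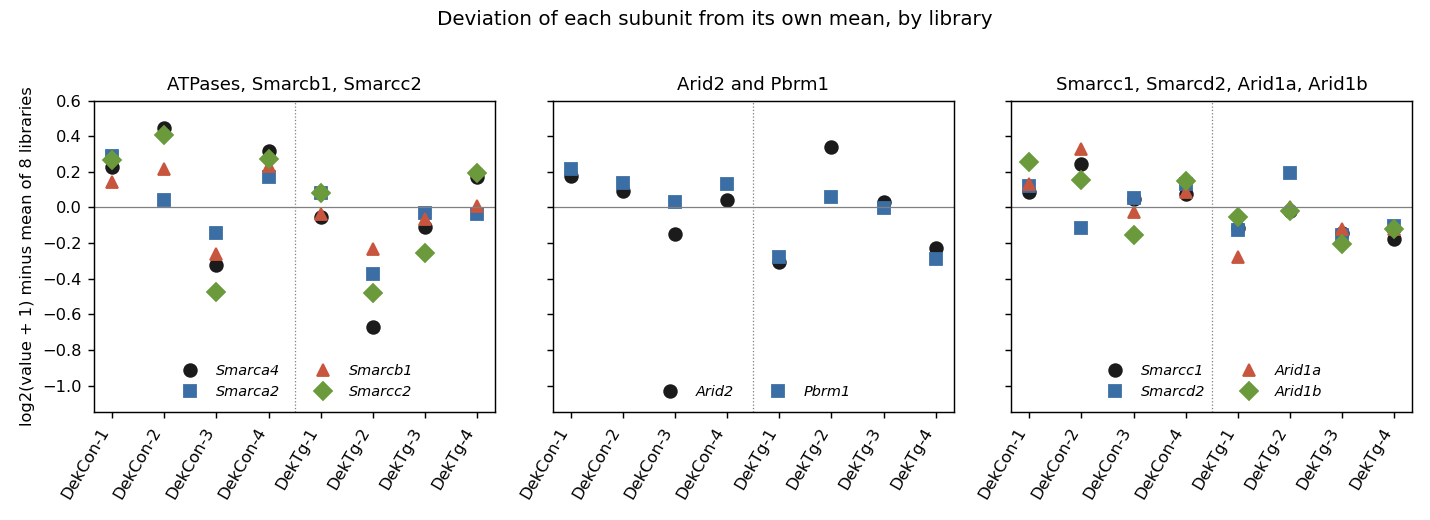
Deviation of log2(value + 1) from each gene's mean over the 8 libraries (vertical axis) by library (horizontal axis), in 3 sets of subunits. Smarca4, Smarca2, Smarcb1 and Smarcc2 are low in DekCon replicate 3 and DekTg replicate 2, where Smarca4 is at -0.32 and -0.67, while Arid2 is at its highest, 0.34, in DekTg replicate 2.

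Ratios between related subunits were compared within each library, which removes the library's scaling. It does not remove any effect of base composition, whose part in the ratios was not tested. Smarcc1 over Smarcc2 (48.5% and 53.8% GC) was highest in DekCon replicate 3 and DekTg replicates 2 and 3, where r with GC was negative. Arid1a over Arid1b (56.7% and 52.9% GC) was lowest in DekTg replicate 1, where r was positive. Smarca4 over Smarca2 (55.8% and 51.1% GC) was lowest in DekTg replicate 2 and DekCon replicate 3, where r was negative, but not in DekTg replicate 3. The sum of Arid1a and Arid1b over Arid2 (45.9% GC) was lowest in DekTg replicates 2 and 3, but not in DekCon replicate 3. Smarca4 exceeded Smarca2 in all 8 libraries, with count ratios of 1.43, 1.99, 1.33 and 1.66 in DekCon and 1.36, 1.22, 1.42 and 1.73 in DekTg. The groups overlapped, and the log2 ratio differed by -0.15 (two-sided exact permutation p = 0.4, adjusted p = 0.762 over 4 ratios). Smarcc1 exceeded Smarcc2 by 3.28, 3.31, 5.32 and 3.23 times in DekCon and 3.24, 5.11, 4.01 and 2.87 times in DekTg; the mean log2 ratios were 1.88 ± 0.35 and 1.89 ± 0.37 (SD, n = 4 each; exact permutation p = 0.971, adjusted p = 0.971). Arid1a exceeded Arid1b by between 2.11 and 2.79 times, and that log2 ratio differed by -0.06 (exact permutation p = 0.571, adjusted p = 0.762).

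The sum of Arid1a and Arid1b over Arid2, which sets canonical BAF against PBAF transcripts, was 3.18, 3.64, 3.40 and 3.34 in DekCon and 3.41, 2.52, 2.83 and 3.43 in DekTg. DekTg replicates 2 and 3 were the lowest of the 8 and replicates 1 and 4 lay within the DekCon range. The log2 ratio differed by -0.16 (exact permutation p = 0.314, adjusted p = 0.762). Shifts of the log2 ratio that the exact test did not reject at 0.05 ran from -0.70 to 0.38 for Smarca4 over Smarca2, from -0.89 to 0.66 for Smarcc1 over Smarcc2, from -0.39 to 0.20 for Arid1a over Arid1b and from -0.53 to 0.11 for the sum over Arid2. None of the 4 ratios separated the genotypes, and these ranges show how large a shift could have been missed.

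**Figure D4:**
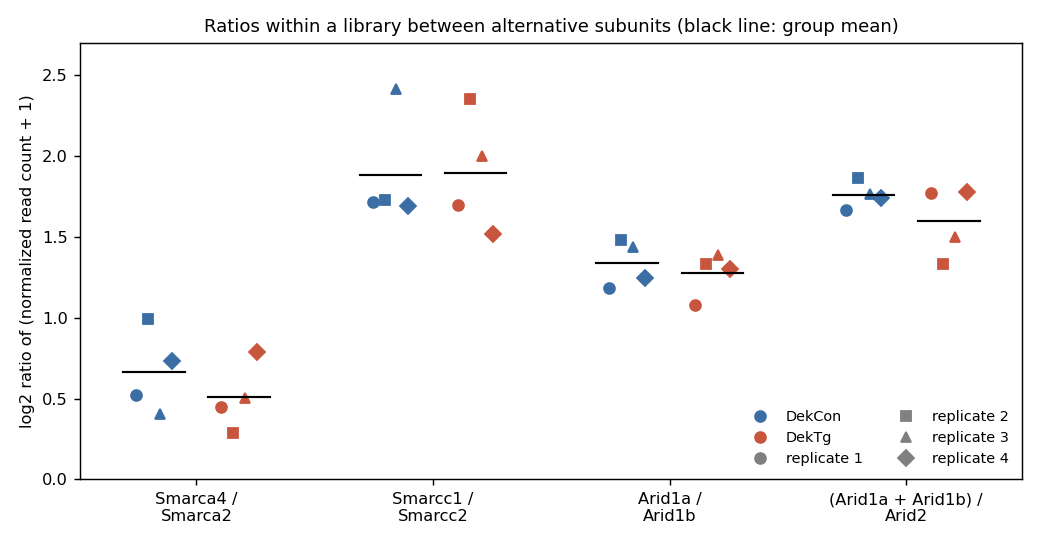
Log2 ratios of (normalized read count + 1) within each library (vertical axis) for 4 pairs of related subunits, with DekCon in blue, DekTg in red, a symbol for each replicate number and a line at each group mean. The groups overlap for every pair, and DekCon replicate 3 stands at 2.41 for Smarcc1 over Smarcc2.

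Levels of different subunits were compared per 1000 bases of the principal GENCODE transcript. Smarcb1 had the highest level, 228 ± 29.7 normalized reads per 1000 bases (SD over 8 libraries), and its lowest library (189) was above the highest library of any other subunit. Arid1a (100.1), Pbrm1 (99.7), Smarcc1 (97.9) and Smarca4 (95.4) followed, and these 4 neighbours overlapped and did not keep their order from library to library. Smarca2 came next at 66.9, below Smarca4 in all 8 libraries although their ranges overlap. Arid2 (42.3), Smarcd2 (37.5), Smarcc2 (33.9) and Arid1b (29.1) were lowest, each overlapping its neighbour. This order depends on the transcript length used: with the union of all annotated exons Smarca4 came first and Smarcb1 the fifth, since 7930 exonic bases are annotated for Smarcb1 and its principal transcript has 1660.

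**Figure D5:**
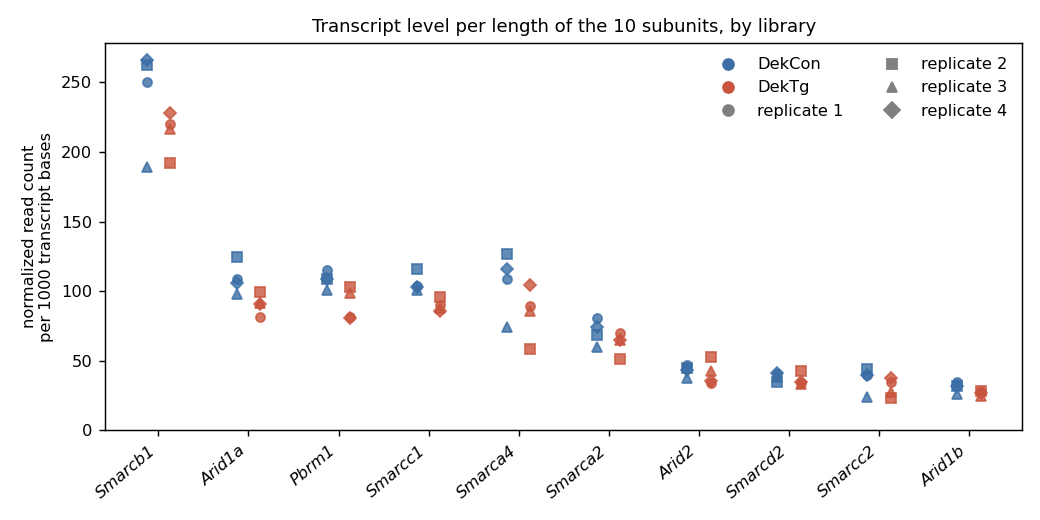
Normalized read counts per 1000 bases of the principal transcript (vertical axis, from 0) for the 10 subunits in order of their mean, with 1 point per library, blue for DekCon and red for DekTg. Smarcb1 lies between 189 and 266 in every library, and the next 4 subunits overlap.

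The other 19 SWI/SNF subunits gave similar small differences. Limma called 0 of 19, with 1 under an unadjusted 0.05 against 6.93% of all genes tested. EdgeR called 0 of 19 and DESeq2 0 of the 6 to which it gave an adjusted p. Each had 1 under an unadjusted 0.05, against 6.54% and 4.34% of all genes. Of the 19, 15 lay below 0 and 4 above, with a median log2 fold change of -0.14. The 1 gene under 0.05 was Dpf2, a reader of modified histones in canonical BAF, with 626, 845, 589 and 613 in DekCon and 476, 571, 484 and 495 in DekTg. Its groups did not overlap, and its log2 fold change came to -0.39 (limma SE 0.13, adjusted p = 0.711). Ss18, another canonical BAF subunit, had a log2 fold change of -0.12, and the PBAF subunits Phf10 and Brd7 had -0.18 and -0.14. For the non-canonical complex, Brd9 had -0.25, Bicra -0.28 and Bicral 0.06, none past the test. Among the SMARCD forms Smarcd2 dominated, with 37.5 normalized reads per 1000 bases against 15.2 for Smarcd1 and 2.50 for Smarcd3. The forms known from neurons were low: Dpf1 had 3.77, Dpf3 8.23 and Actl6b 21.5 normalized reads per 1000 bases, against 177 for Dpf2 and 175 for Actl6a.

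Among other remodellers and the polycomb proteins, which are known as opponents of SWI/SNF, limma called 0 of 41 genes. Under an unadjusted 0.05 were 6 of them, against 6.93% of all genes tested. Of the 7602 genes with a mean value of at least 100, 811 were under it. Jarid2, Phc2, Ezh2, Mta3 and Ruvbl1 were lower, and Bmi1 (0.51) was higher, with all 6 named here after their values were seen. EdgeR called 0 of 41 and DESeq2 0 of the 18 to which it gave an adjusted p, with 5 each under an unadjusted 0.05, all lower. At that level stood 6.54% (edgeR) and 4.34% (DESeq2) of all genes. The median log2 fold change was -0.0052 for 8 ISWI genes, -0.18 for 12 CHD and NuRD genes, -0.11 for 8 INO80 and SWR genes and -0.07 for 13 polycomb genes, beside -0.21 for the 10 subunits; these medians were not tested against each other. The genes of smallest p were Baz1a (-0.29) of ISWI, Mta3 (-0.34) of NuRD, Ruvbl1 (-0.37) of INO80 and the polycomb cofactor Jarid2. Jarid2 was 640.2, 887, 626 and 584 in DekCon and 443, 513, 514 and 449 in DekTg, without overlap (log2 fold change -0.50, SE 0.14, limma adjusted p = 0.658).

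The genes whose library pattern was most like the mean of the 10 subunits were sought among 7592 genes with a mean value of at least 100. The 5 with the highest Pearson r over the 8 libraries were Fbxw5 (0.98), Ankrd10 (0.98), Wdr77 (0.98), Mbnl1 (0.97) and Zfp748 (0.97). Fbxw5 was 181, 189, 134 and 194 in DekCon and 135, 130, 139 and 143 in DekTg. It shows the shape of the subunits' mean: DekCon replicate 3 lay with the 4 DekTg libraries and the other 3 DekCon libraries lay above. None of the 5 passed the test (limma adjusted p = 0.711 to 0.79).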

How the data were processed

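Per the labels, RNA of sorted stem cells was extracted with a miRNeasy kit, amplified by Geo-seq and made into libraries by tagmentation. The submitters' processing notes name build mm10 and the tools HTSeq, DESeq2, Cufflinks 2.1.1 and Bowtie 0.12.9, without order, annotation or strandedness. The deposited signal is named FPKM by its table, but 99.99% of 417792 values are whole multiples of 1 step per library (tolerance 0.001 reads), with 25 exceptions in 6 genes, none of them a subunit. The steps match DESeq2's size factors to a relative gap of 4.4e-05, so the values were read as counts that the authors divided by a size factor. The deposited header spells the control group DenCon; its columns were matched to DekCon by replicate number. Genes with a value of at least 1 in at least 4 libraries were tested with limma 3.58.1 (R 4.3.3) on log2(value + 1) with a mean-variance trend. The test was two-sided, with all genes adjusted together. It was checked on simulated data whose planted changes were larger than the subunits' differences, so that check does not cover differences of their size. Ratios were compared by exact permutation (scipy 1.17.1), and edgeR 4.0.16 and DESeq2 1.42.0 were run on recovered reads. Positions, lengths and exons are from GENCODE M21 (GRCm38), and promoter windows from RefSeq. The rule for named genes took all 10 subunits, the other subunits, called genes or else the gene of smallest p of each related list, and the 5 genes of most similar pattern. The subunits and lists were chosen with earlier results of these data known. The labels do not say that libraries come from separate mice, so p-values measure only sample-to-sample spread, and this may be technical. Replicates 1 and 4 of a group differed by 1.58 (DekCon) and 1.67 (DekTg) times the sampling noise, against at least 3.34 for other pairs, and were kept as separate samples.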

Additional observations from a re-analysis of the deposited data

Results flagged for a closer look

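Gaps to the nearest library within groups of 4 were examined for the 10 subunits, Dek and the 4 ratios, 30 groups in all, of which chance marks about 1 in 20. The Smarcd2 value of 118 in DekTg replicate 2 stood apart from the other 3 DekTg libraries, with a gap of 0.869 of the group's range. The log2 ratio of Smarcc1 over Smarcc2 was 2.41 in DekCon replicate 3, with a gap of 0.948 of the DekCon range. In that library Smarcc2 was at 107 and Smarcc1 at 576.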

How the results depend on the processing

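Limma called 13 of all genes tested, 10 higher and 3 lower. The count was 24 with no filter on low values, 4 without the trend (3 higher, 1 lower), 8 without the 6 genes with fractional reads (7 higher, 1 lower), and 13 to 22 on leaving out 1 library, with 22 without DekTg replicate 2 (10 higher, 12 lower). DESeq2 called 14, with 4 higher and 10 lower. The setting without those 6 genes and the averaging of replicates 1 and 4 were chosen after seeing the data. No subunit or related gene that had an adjusted p passed in the 20 alternatives; DESeq2 gave one to 8 of the 10 subunits, 6 of the 19 others and 18 of the 41 related genes, and a minimum value of 10 left 18 of the 19. Fold changes of 9 subunits kept their sign in all 20. Arid2 turned to 0.014 with quantile normalization, 0.0043 with the same total in every library and 0.017 with replicates 1 and 4 averaged, and ranged from -0.21 to 0.0076 on leaving out 1 library; the cause was not tested. The ratio of Smarcc1 over Smarcc2 ranged from -0.15 to 0.18 on leaving out 1 library, that of Arid1a over Arid1b from -0.11 to 0.0053, that of Smarca4 over Smarca2 from -0.25 to -0.05 and that of the BAF sum over Arid2 from -0.22 to -0.08. The Dek ratio ranged from 4.36 to 5.09, where 3 against 4 libraries cannot go below p = 0.0571 (exact permutation). With the replicate number as a block, 15 genes were called and no subunit. Deviations of same-numbered libraries correlated at 0.10, 0.04, 0.08 and 0.17, and not every library correlated best with its own number. Correlations this weak do not show that the numbers pair the samples, and cannot exclude it. Depth limits the lowest subunit most, at 88 reads.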
